A study of Mus musculus with 15 samples.

Results

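Srf and 9 cytoskeletal genes counted among its targets (Vcl, Tpm1, Tpm3, Tpm4, Tagln, Tagln2, Flna, Myh9 and Myl9) were followed through mouse 2-cell embryos, either left without injection or injected to express actin in the nucleus. The members were taken by gene symbol, and all 10 were present as 1 row each among the 53023 genes of the deposited table. Each library came from a pool of 5 ICR embryos made by in vitro fertilization, cultured in KSOM medium and collected 32 hours after insemination. Injected groups had received mRNA 2 hours after insemination that codes for HA-tagged actin carrying a nuclear localisation signal (NLS), either wild type or carrying R62D, a mutation that prevents polymerisation. No source used here states the mRNA dose. The 6 libraries form 3 pairs, and their titles contradict their annotation of the injected mRNA. Pair A (libraries A1 and A2) is titled as wild-type actin and annotated as non-injected. Pair B (B1 and B2) is titled as R62D and annotated as wild-type actin, actinWT-HA-NLS. Pair C (C1 and C2) has the title of the non-injected control, while its annotation reads actinR62D-HA-NLS. Neither reading was preferred, groups are named by pair, and the values of a pair are given with library 1 first. The other 9 libraries of the series (Exportin 6 with R62D, G15S, and their non-injected control) were not analysed here.

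SRF (serum response factor) is a transcription factor that binds the CArG box, a short A/T-rich element between a pair of C and a pair of G bases. Its cofactors of the MRTF family bind unpolymerised G-actin, which keeps them away from SRF, and polymerisation of actin, in the nucleus as well as in the cytoplasm, frees them. The genes that SRF and MRTF then switch on code largely for actin and the proteins that bundle, anchor and contract it, so the pathway links the state of actin to the supply of its partners. In the early mouse embryo much of the RNA in the cell at the 2-cell stage was laid down in the oocyte.

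The CArG box is the element that the label "SRF target" refers to, and it was therefore looked for in the RefSeq promoters of the members (GRCm38.p6, 250 bases before to 50 bases after each start). A match was required to fit the CArG box in all 10 of its bases, and since the box is its own reverse complement in form, 1 search covers both strands. Promoters were given for 9 of the 10 members, all but Tagln. Srf, Vcl and Myl9 held a box, 3 of 9 genes, against 1.81% of the 27025 genes with a promoter in the table. The members were listed as targets of SRF, so their choice favours a higher share, which is no test of the label. The stretches that hold it are shown 5′ to 3′ on the strand of the gene, with each CArG box in capitals.
Srf, chr17:46556195-46556264, minus strand: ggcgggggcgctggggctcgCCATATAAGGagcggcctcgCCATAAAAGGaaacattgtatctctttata
Vcl, chr14:20929151-20929200, plus strand: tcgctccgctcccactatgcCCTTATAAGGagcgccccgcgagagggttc
Myl9, chr2:156775283-156775332, plus strand: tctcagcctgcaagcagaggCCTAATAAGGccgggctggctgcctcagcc
The promoter of Srf held 2 boxes, which began 82 and 62 bases before the start, so the gene for the factor carries the factor's own element. The box of Vcl began 227 bases before its start and that of Myl9 161 bases before. No exact box was found in these windows for Tpm1, Tpm3, Tpm4, Tagln2, Flna or Myh9, which says only that these letters are not there.

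The libraries were shallow, with 907210 (C2) to 1555431 (C1) assigned reads, as recovered from the FPKM values and gene lengths. FPKM is fragments per kilobase of gene, scaled to the assigned fragments of the library, and the values are levels per length that can be set side by side between genes. On principal component 1, which held 28.7% of the variance, A2 (score 49.3) and C2 (49.7) stood apart from the other 4 libraries (-32.7 to -11.1). B2 had 0 reads on 4 Y-linked genes, against 89 to 233 in the other libraries. All 10 markers of the 2-cell embryo and 9 of 10 oocyte markers passed a mean of 1 FPKM, as the label of the samples has it. The members took 113 to 179 of each 1000000 assigned reads, and reads assigned to Tpm3 made up 69.4% of the 995 member reads of all libraries. The filter for testing, an average level of 1 FPKM or more across libraries, was passed by 6 members. The other 4, Tpm1, Tagln, Flna and Myh9, did not and were not tested.

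**Figure D1:**
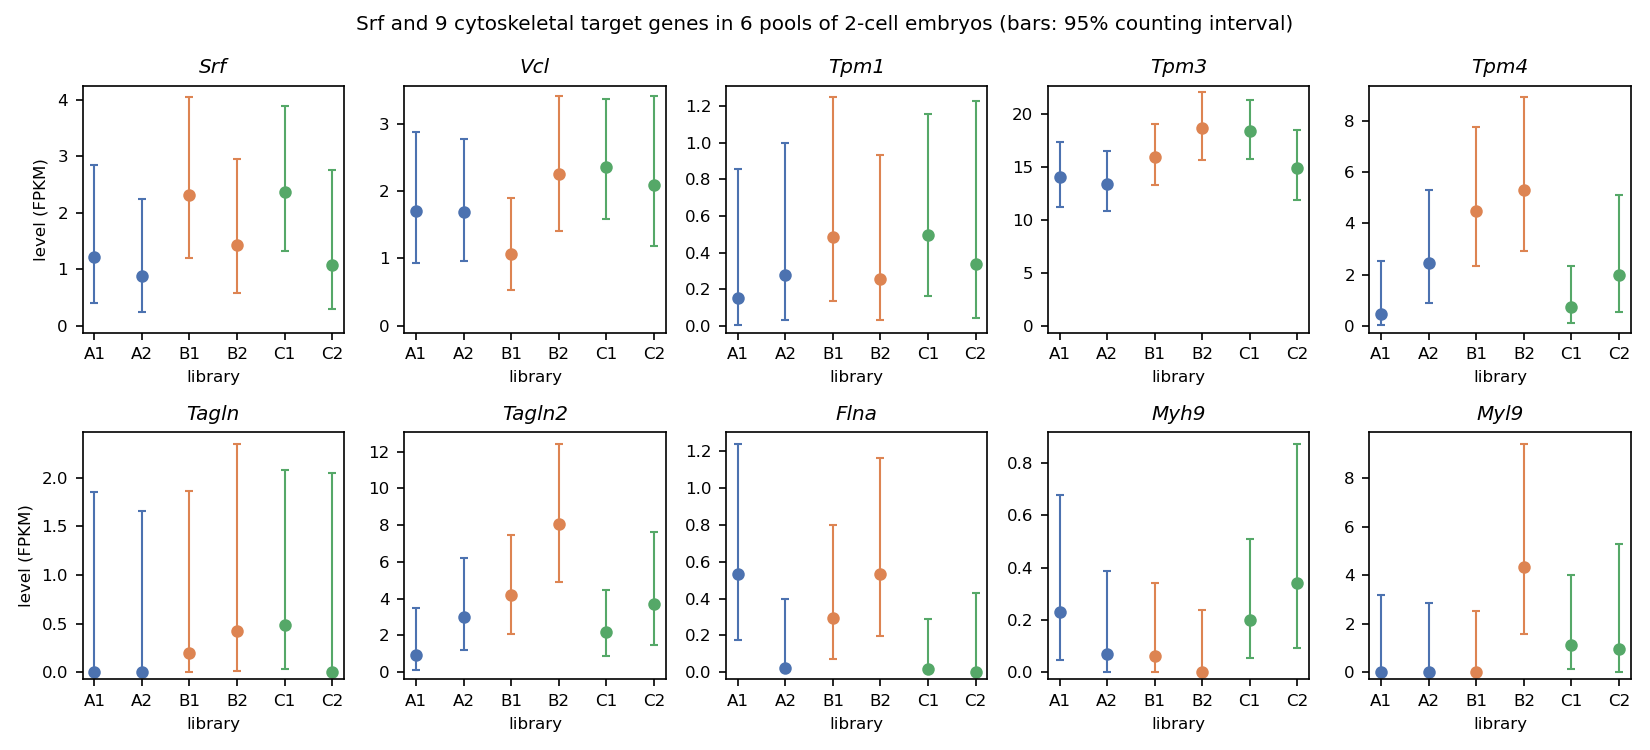
Level in FPKM (linear axis) of each of the 10 genes in each library, with bars for the exact 95% Poisson interval of its reads, which covers counting error only. Tpm3 lies between 13.4 and 18.6 FPKM with narrow bars, Tpm4 and Tagln2 are highest in both libraries of pair B, and Tagln, Myh9 and Flna rest on at most 6 reads in any library.

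Srf itself (chromosome 17, 46546839 to 46556162, minus strand, mm10) was a low transcript, with a mean of 1.55 FPKM. It measured 1.22 and 0.874 FPKM in pair A, 2.32 and 1.43 FPKM in pair B and 2.36 and 1.08 FPKM in pair C. C1 and B1 were highest, both libraries of B lay above both of A, and C overlapped with each of the other pairs. These values rested on 5 and 4 reads in A, 12 and 7 in B, and 15 and 4 in C, so that the 95% counting interval in A1 ran from 0.397 to 2.85 FPKM. The difference of B from A was 0.48 ± 0.50 (SE) on the log2(FPKM + 1) scale, with an adjusted p of 0.991 (limma, Benjamini-Hochberg over 13443 genes). The unadjusted 95% interval ran from -0.71 to 1.66, which leaves room for a difference in either direction. C against B measured -0.11 ± 0.50 (SE) and C against A 0.37 ± 0.50 (SE), both with an adjusted p of 1 (limma). Without A2 and C2 the former turned to 0.24. Leaving out 1 library moved C against A from 0.026 (without C1) to 0.72 (without C2), and B against A from 0.25 (without B1) to 0.70 (without B2).

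Vcl codes for vinculin, which couples integrin and cadherin adhesions to actin filaments. Its levels were 1.71 and 1.69 FPKM in pair A, 1.06 and 2.25 FPKM in pair B and 2.35 and 2.09 FPKM in pair C. B spanned nearly the whole range, with the lowest library of all, while C lay above A and overlapped with B. The difference of C from A was 0.25 ± 0.46 (SE) on the log2(FPKM + 1) scale (limma, adjusted p = 1). Vcl shares 2090 exonic bases with Ap3m1, a gene of an adaptor protein complex on the opposite strand, which measured 9.26 FPKM on average. No source gives the handling of strand, so reads of Vcl and Ap3m1 in that stretch cannot be told apart.

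The tropomyosins are coiled-coil proteins that lie along actin filaments and control the access of myosin and cofilin. Tpm3, at a mean of 15.9 FPKM, stood above 88.5% of protein-coding genes, 6.17 times Tpm4 (2.57 FPKM) and 47.3 times Tpm1 (0.335 FPKM) in mean level. These values take the reads of Tpm3 as assigned, and their split from a close copy, Tpm3-rs7, is uncertain (next paragraph). Tpm3 was above Tpm4 in all 6 libraries, and 3.50 to 30.9 times as high. Tpm2, of the same family, had 2 reads in A2 and 0 elsewhere.

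Tpm3 (chromosome 3, 90072649 to 90100902, plus strand) was also the most even member. It measured 14.0 and 13.4 FPKM in pair A, 15.9 and 18.6 FPKM in pair B and 18.4 and 14.9 FPKM in pair C. The highest library was 1.39 times the lowest, and both B and C lay above A without overlap. The differences were 0.31 ± 0.32 (SE) for B against A and 0.25 ± 0.32 (SE) for C against A on the log2(FPKM + 1) scale, neither past the threshold (limma, adjusted p = 0.991 and 1). The upper ends of their unadjusted 95% intervals, 1.05 and 1.00, lie near a doubling on that scale. Its reads came to 82.2 to 173.7 per library and were partly fractions of reads. Tpm3-rs7, a copy on chromosome 14 annotated as protein coding, matches a Tpm3 transcript at 99.1% over 2108 bases and had 515 reads over the 6 libraries, beside 690 on Tpm3. The share of Tpm3 in the sum of both was 54.2% to 59.4% in every library, so it cannot be said how much of either value belongs to which gene. Summed, they gave 144 and 150 reads per 1000000 in pair A, 165 and 199 in pair B and 195 and 159 in pair C, again with A lowest.

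Tpm4 (chromosome 8, 72134975 to 72153142, plus strand) codes for a short tropomyosin of non-muscle cells. It measured 0.454 and 2.44 FPKM in pair A, 4.49 and 5.32 FPKM in pair B and 0.730 and 2.00 FPKM in pair C. Both libraries of B lay above all 4 of A and C, and A and C overlapped. By reads these were 1 and 6 in A, 12.5 and 14 in B, and 2.5 and 4 in C. The 95% counting intervals of A2 (0.894 to 5.30 FPKM) and C2 (0.545 to 5.12 FPKM) overlap with those of B1 (2.35 to 7.75 FPKM) and B2 (2.91 to 8.93 FPKM). The difference was 1.40 ± 0.57 (SE) for B against A and -1.37 ± 0.57 (SE) for C against B, on the log2(FPKM + 1) scale. A processed pseudogene, Gm7809, matches Tpm4 at 96.8% over 743 bases and had 4 reads in all. Neither difference passed over all genes (limma, unadjusted p = 0.0426 and 0.0458, adjusted p = 0.991 and 1). Both comparisons share the libraries of B. Without A2 and C2, the libraries that stood apart, they were 2.02 and -1.77, with A and C at 1 library each. Without A1, B against A was 0.78, and without C1, C against B was -0.97.

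Tpm1, the tropomyosin of striated muscle and of stress fibres, measured 0.154 to 0.496 FPKM, on 1 to 5 reads per library. C1 was highest and A1 lowest, and both libraries of C lay above both of A, on 5 and 2 reads against 1 and 2. It was below the filter and was not tested.

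The transgelins bind and bundle actin filaments. Tagln2 (chromosome 1, 172500047 to 172507380, plus strand), the form found outside muscle, measured 0.960 and 3.01 FPKM in pair A, 4.18 and 8.04 FPKM in pair B and 2.16 and 3.71 FPKM in pair C. As with Tpm4, B2 was highest and A1 lowest, and both libraries of B lay above the other 4. The reads were 2 and 7 in A, 11 and 20 in B, and 7 in each library of C. Here too the 95% counting intervals of A2 (1.21 to 6.20 FPKM) and C2 (1.49 to 7.64 FPKM) overlap with that of B1 (2.09 to 7.47 FPKM). B exceeded A by 1.29 ± 0.53 (SE) on the log2(FPKM + 1) scale, with an unadjusted p of 0.0448 and an adjusted p of 0.991 (limma). C against B was -0.83 ± 0.53 (SE) (limma, adjusted p = 1), and without B2 it was -0.42. Without A2 and C2, B against A was 1.80 and C against B -1.11. Tagln, the smooth muscle form known as SM22, had 0 reads in A1, A2 and C2 and at most 1.5 reads elsewhere. A count of 0 allows up to 1.51 FPKM in A1, 1.35 FPKM in A2 and 1.66 FPKM in C2 (3 reads). Tagln2 measured more than Tagln in each library, but its 0.960 FPKM in A1 lies within what 0 reads allow for Tagln there. The antisense RNA AC122273.1 shares 1241 exonic bases with Tagln and had the same reads, 0.5, 1 and 1.5 in B1, B2 and C1, so these reads cannot be assigned to either gene.

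Tpm4 and Tagln2 were the 2 of 10 members for which both libraries of pair B lay above every library of A and C, an order seen in 7.41% of the 13443 tested genes. The summed level of 10 markers of the 2-cell stage had the same order, at 1771 and 1241 FPKM in pair A, 2599 and 2967 FPKM in pair B and 1928 and 1422 FPKM in pair C. Gm2016 had the highest level of these markers, and of the 10, Zscan4d, Zfp352, Gm2016 and Obox3 had that order by themselves. The summed level of 10 oocyte markers did not have it, at 499 and 327 FPKM in pair A, 482 and 369 FPKM in pair B and 498 and 236 FPKM in pair C. The 14 markers of cumulus and granulosa cells, which surround the oocyte, together had 2 to 3.17 reads in A, 9 to 11 in B and 4.5 to 8.5 in C. Of these, Fshr, Foxl2, Inha, Inhba and Ptx3 had 0 reads in all 6 libraries, and Tnfaip6 alone passed the filter. Tnfaip6 held 0 and 1 of the summed reads in A, 5 in each library of B, and 4 and 2 in C. These sums are not scaled to the depth of the libraries. The part of these other transcripts in the levels of Tpm4 and Tagln2 was not tested. In pools of whole embryos, less RNA per cell and fewer cells with the RNA cannot be told apart.

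Flna codes for filamin A, an X-linked protein that cross-links actin filaments into networks. It measured 0.532 and 0.0238 FPKM in pair A, 0.294 and 0.534 FPKM in pair B and 0.0171 and 0 FPKM in pair C. Both libraries of C lay below the other 4, but A2 and C1 each rest on 0.25 reads, no library had more than 6, and a count of 0 in C2 allows up to 0.352 FPKM. B2, which was highest for Flna, is also the library with no Y-linked reads, and the part of embryo sex was not tested. Flnc, the filamin of muscle, had 1 read in each of A1 and B2 and 0 in the others.

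Myosin II is the motor that contracts actin filaments, built from heavy chains and regulatory and essential light chains. Myh9, the heavy chain of myosin IIA, had 0 to 4 reads per library, at 0.232 and 0.0692 FPKM in pair A, 0.0612 and 0 FPKM in pair B and 0.199 and 0.341 FPKM in pair C. B was lowest and did not overlap with A or C, though A2 and B1 rest on 1 read each and the count of 0 in B2 allows up to 0.194 FPKM, which overlaps with the others. Its paralog Myh10, the heavy chain of myosin IIB, measured 2.32 to 4.44 FPKM and was above Myh9 in all 6 libraries, 18.9 times in mean level. Myl9, a regulatory light chain of smooth muscle and non-muscle myosin, measured 0 FPKM in A1, A2 and B1, 4.32 FPKM in B2, 1.11 FPKM in C1 and 0.949 FPKM in C2. It was thus found in 3 libraries, on 6 reads in B2, 2 in C1 and 1 in C2, and it passed the filter through B2. A count of 0 allows up to 2.58 FPKM in A1 (3 reads), and the 95% counting interval of the 6 reads in B2, 1.59 to 9.41 FPKM, overlaps with that. The other light chains were far more abundant, at 11.2 to 28.2 FPKM for Myl12a, 18.4 to 48.6 FPKM for Myl12b and 17.9 to 36.1 FPKM for Myl6, each above Myl9 in all 6 libraries. Myl12a and Myl12b are close copies of each other, and the split of reads between them is uncertain.

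**Figure D2:**
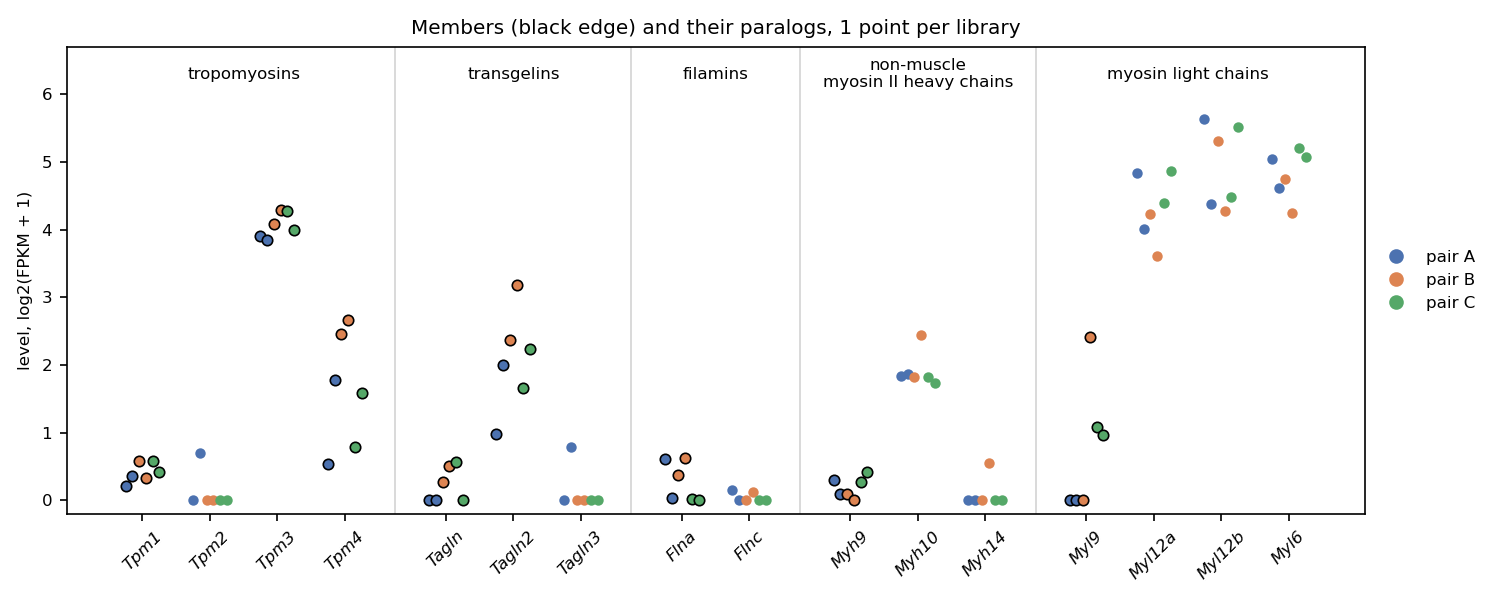
Level as log2(FPKM + 1) of the members (points with a black edge) and of their paralogs, with 1 point per library coloured by pair. Tpm3 leads the tropomyosins and Tagln2 the transgelins, while Myh10 at 2.32 to 4.44 FPKM lies above Myh9, and Myl12a, Myl12b and Myl6 lie above Myl9 in every library.

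Of 12 markers of fibroblasts and smooth muscle, Cnn1 alone passed the filter, and Col1a2, Col3a1, Dcn, Pdgfrb and Des had 0 reads in all 6 libraries. Their summed reads were 32 and 14 in pair A, 24 and 17 in pair B and 70.5 and 4 in pair C, of which Cnn1, also a target of SRF, held 28, 3, 17, 8, 49 and 0. Ctnna1, the alpha-catenin related to vinculin, measured 10.7 to 17.9 FPKM, above Vcl in all 6 libraries.

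The highest value lay in B2 for 5 of 10 members (Tpm3, Tpm4, Tagln2, Flna and Myl9) and in C1 for 4 (Srf, Vcl, Tpm1 and Tagln), while Myh9 was highest in C2. Among all tested genes, B2 held the highest value for 19.5%, C1 for 20.2% and C2 for 14.4%. C1 was the deepest library and the one in which all 10 members had a read, against 8 or 9 in the others. No member was highest in A1, A2 or B1, which held the highest value for 16.1%, 13.3% and 16.5% of tested genes.

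The comparison of pair C with pair B is R62D against wild-type actin if the annotation holds, and non-injected against R62D if the titles do. No member passed (limma, adjusted p = 1 for all 6 tested), nor did any of the 13443 genes, of which 0% were called. At an unadjusted p below 0.05, Tpm4 was lower in C, where 2.22% of all tested genes were lower, 1.64% higher and 3.85% either. Both libraries of C lay below both of B for 3 of 10 members, Tpm4, Tagln2 and Flna, and above them for Myh9. Of the tested genes 14.8% lay lower and 15.5% higher in this way, 30.2% in all, and of the 26934 genes with any read, 12% and 11.7%. The unadjusted p of Tpm4 was above 0.05 with a pseudocount of 0.1 (0.0767), no filter (0.0628), median scaling (0.0512) or quantile normalization (0.0650, limma). It stayed below 0.05 with limma-voom (0.0306) and the replicate block (0.0256, limma). Leaving out 1 library moved the difference of Tpm4 between -1.77 (without C2) and -0.97 (without C1).

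Pair C against pair A is R62D against non-injected if the annotation holds, and non-injected against wild-type actin if the titles do. No member passed here either (limma, adjusted p = 1 for all 6), and 0% of genes were called. No member had an unadjusted p below 0.05, where 3.01% of tested genes did (1.67% higher, 1.34% lower). Vcl, Tpm1, Tpm3 and Myl9 lay higher in both libraries of C than in both of A, 4 of 10 members against 16.5% of tested genes and 12.9% of genes with any read. Flna lay lower, against 10.4% and 8.62%, and pairs did not overlap for 26.9% of tested genes. For Tpm4 the difference on the log2(FPKM + 1) scale was 0.03 ± 0.57 (SE), and it turned to -0.05 after median scaling and to -0.12 after quantile normalization.

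Pair B against pair A is wild-type actin against non-injected if the annotation holds, and R62D against wild-type actin if the titles do. Again no member passed (limma, adjusted p = 0.991 to 1) and 0% of genes were called. Tpm4 and Tagln2 were higher at an unadjusted p below 0.05, as were 2.77% of all tested genes, with 1.79% lower and 4.57% either. With a pseudocount of 0.1, that p was 0.0599 for Tpm4 and 0.0499 for Tagln2 (limma). For Tpm4 and Tagln2, it was above 0.05 with no filter (0.0589 and 0.0595), median scaling (0.0577 and 0.0600) or quantile normalization (0.0853 and 0.0723, limma). It was also above 0.05 for both without A1 (0.223 and 0.249), B1 (0.109 and 0.0540), B2 (0.151 and 0.242), C1 (0.0561 and 0.0734) or C2 (0.0565 and 0.0754, limma). With limma-voom, the replicate block or A2 left out, both stayed below 0.05. Srf, Tpm3, Tpm4, Tagln and Tagln2 lay higher in both libraries of B than in both of A, 5 of 10 members against 18.8% of tested genes and 14% of genes with any read. Myh9 lay lower, against 12.8% and 10.5%, and pairs did not overlap for 31.7% of tested genes. For Tagln the order rests on 0.5 and 1 read against 0. The difference of Myl9, 1.21, becomes 0 without B2. Over all genes at an unadjusted p below 0.05, 60.7% were higher in B, and 49.5% after quantile normalization. The 3 comparisons share their libraries with each other, so they are not independent of one another. With 2 pools per pair the intervals are wide, and that of Tpm3, the most precisely measured member, still ran from -0.43 to 1.05 in B against A.

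**Figure D3:**
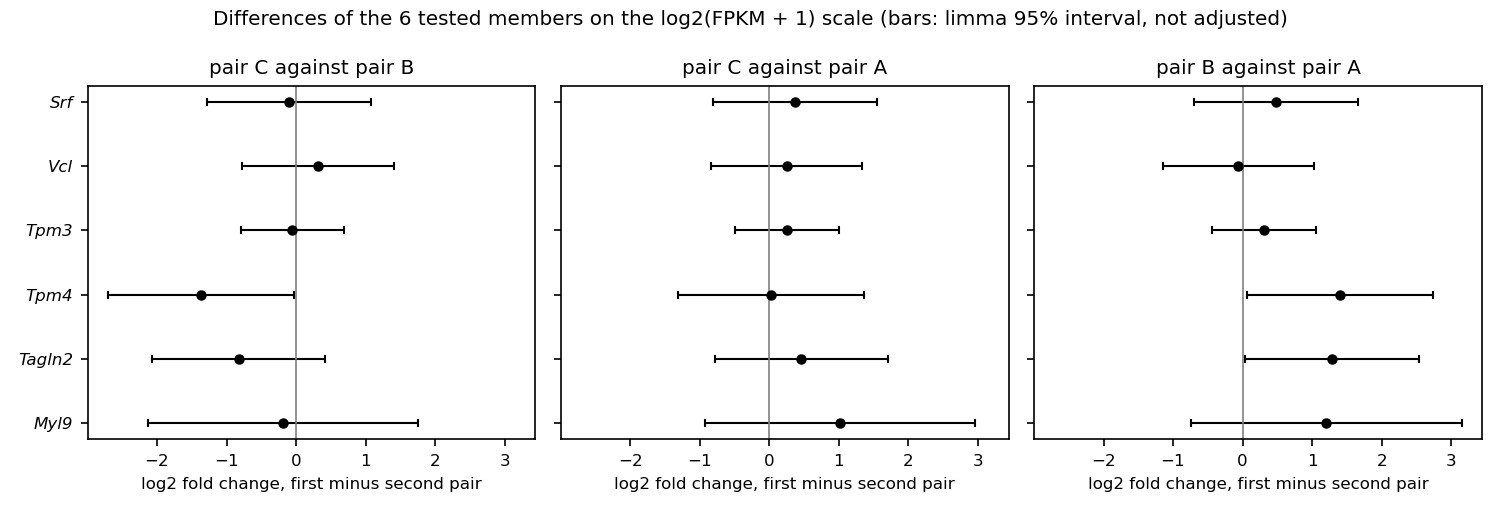
Difference of the first minus the second pair on the log2(FPKM + 1) scale for the 6 tested members, with unadjusted 95% intervals from limma. The intervals of Tpm4 lie off 0 in C against B (-2.71 to -0.03) and in B against A (0.06 to 2.73), as does that of Tagln2 in B against A (0.04 to 2.54), and none of these passed after adjustment over all genes.

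The cofactors that bring actin signals to SRF were next examined, from a list of 9 genes of which 3 were tested. Mkl2, which codes for MRTF-B, measured 2.84 and 0.597 FPKM in pair A, 0.923 and 2.28 FPKM in pair B and 1.39 and 0.307 FPKM in pair C. Mkl1, which codes for MRTF-A, had at most 2 reads in any library, and Myocd, the myocardin of heart and smooth muscle, had 0. Elk4, a ternary complex factor that partners SRF in the growth factor response, was the most abundant cofactor. It measured 5.77 and 2.02 FPKM in pair A, 5.80 and 5.75 FPKM in pair B and 4.47 and 1.98 FPKM in pair C. For both Mkl2 and Elk4 the lowest libraries were A2 and C2, those that stood apart on principal component 1, and all 3 pairs overlapped for Mkl2. Scai codes for a suppressor of MRTF. Its levels were 2.84 and 2.03 FPKM in pair A, 2.05 and 2.98 FPKM in pair B and 3.07 and 3.22 FPKM in pair C. Both libraries of C lay above both of B, as for 15.5% of tested genes, and above both of A, as for 16.5%. All 3 comparisons left each of the 3 at an unadjusted p above 0.05 (limma).

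Upstream of the cofactors, 7 of 12 genes of signalling to actin were tested, none of them (0) with an unadjusted p below 0.05 (limma, 3 comparisons). Among them Rock1, a kinase that promotes contraction by myosin, had a mean of 143 FPKM, Cfl1, the filament-severing cofilin, 44.2 FPKM, Rhoa 29.1 FPKM and the formin Diaph3 12.5 FPKM. Rhob and Rhoc, in contrast, had 0 reads and 0.5 reads in all.

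Among 26 further cytoskeletal and adhesion targets of SRF, 11 were tested. At an unadjusted p below 0.05, 3 of the 11 were lower and 0 higher in pair C than in pair B, beside 2.22% and 1.64% of all tested genes. Against pair A, 2 were lower and 0 higher, beside 1.34% and 1.67%, and B against A gave 0. All of these were actins (Actb, Acta1 and Actc1, then Actb and Acta1), and none passed over all genes (limma, adjusted p = 0.805 to 1). Acta1 had 7 and 17.33 reads in pair A, 9.75 and 2.5 in pair B and 0 in both libraries of C, and Actc1 had 1 and 10.67, 11.7 and 5, and again 0 in both libraries of C. Both passed the filter through pairs A and B, so their lower level in C was favoured by the filter and their calls add nothing to the count. Actb measured 52.0 and 69.2 FPKM in pair A, 116 and 74.1 FPKM in pair B and 34.6 and 27.1 FPKM in pair C, with both libraries of C below the other 4. The actin genes are close copies of each other, and the injected mRNA also codes for actin, so reads from these sources cannot be told apart. Actg1, the other actin of non-muscle cells, measured 3.21 to 10.1 FPKM, with no unadjusted p below 0.05. The median difference of the 11 was -0.35 between C and B, -0.61 between C and A, and 0.01 between B and A. Over all tested genes it was 0, 0.06 and 0.07. The first and second medians of the list include Acta1 and Actc1, whose lower level in C was favoured by the filter. They are therefore not read as a shift of the list. Cnn3, a calponin, measured 44.5 to 96.6 FPKM with overlapping pairs. Cnn1, the calponin of smooth muscle, was present at 10.2 and 0.981 FPKM in pair A, 4.91 and 2.45 FPKM in pair B and 11.5 and 0 FPKM in pair C. Like Elk4 it was lowest in A2 and C2, with 0 reads in C2 and 49 in C1 of the same pair.

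**Figure D4:**
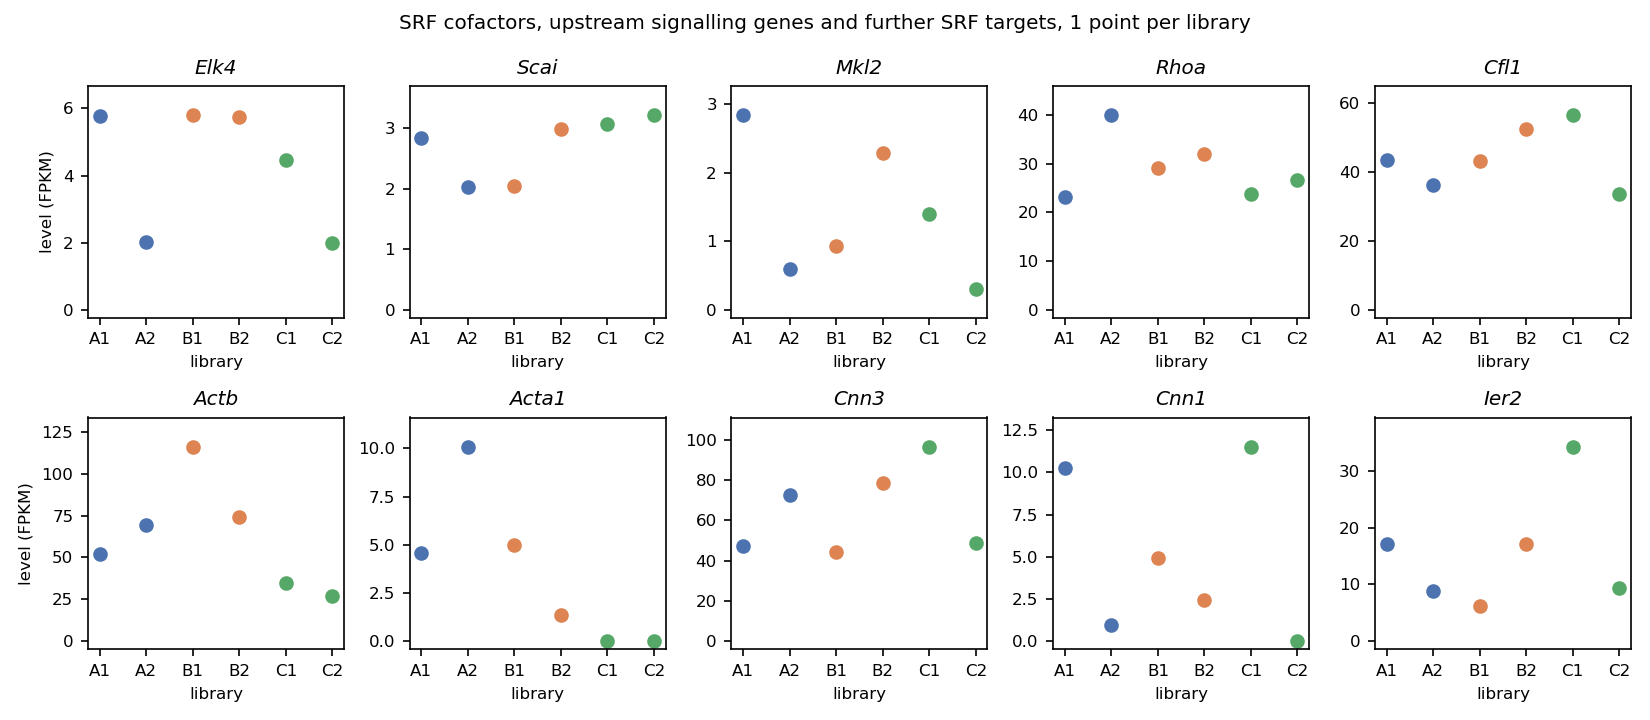
Level in FPKM (linear axes from about 0) of SRF cofactors (Elk4, Scai, Mkl2), upstream genes (Rhoa, Cfl1) and further SRF targets (Actb, Acta1, Cnn3, Cnn1, Ier2), with 1 point per library coloured by pair. Elk4, Mkl2 and Cnn1 are lowest in A2 and C2, and Actb is lowest in both libraries of pair C, at 34.6 and 27.1 FPKM.

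The immediate early genes are switched on by SRF within minutes of a growth signal, and they were listed together with other signalling targets. Of 17 genes in that list, 4 were tested, and 0 reached an unadjusted p of 0.05 in the 3 comparisons (limma). Mcl1, an inhibitor of cell death, had a mean of 32.5 FPKM and Ier2 one of 15.5 FPKM, with Ier2 at 34.2 FPKM in C1 and 6.23 to 17.1 FPKM in the other libraries. Ier3 and Dusp1 had means of 3.66 and 2.69 FPKM. Among the classical immediate early genes, Egr1 had 0 to 5 reads per library and Fos 0 to 3, and Egr3 and Nr4a1 had 0 in all libraries. The other targets Ankrd1 and Vgll3 also had 0. Of the 12 genes in the list of paralogs and related factors, 6 were tested, and 0 reached an unadjusted p of 0.05 (limma).

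The genes whose level followed a member most closely over the 6 libraries were taken from the 7086 genes that averaged 5 FPKM or more, by Pearson's r of log2(FPKM + 1), as a description with 6 points. For Srf these were Rbm18, Usp37 and Scel (r = 0.978 to 0.989). For Tpm3 they were Gm15801, Ipo8 and Ppp3r1 (r = 0.991 to 0.996). Vcl was followed by Psmd11 and Ngrn (r = 0.990 and 0.978), and Tagln2 by Fam98b, Mrto4-ps1 and Fbxo34 (r = 0.976 to 0.980). With so few libraries such values are common, since 13 to 38 genes had an r above 0.95 with each of these 4 members. None of the named genes belongs to the lists described above.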

How the data were processed

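RNA was measured in 6 libraries of 3 pairs. Per the submitters' processing notes, Trimmomatic, Trim Galore, cutadapt, STAR and featureCounts were used with build mm10; no source used here states versions, annotation or strand. The deposited values are FPKM made by the authors, with 0 spike-in rows. From FPKM and gene length, reads were recovered by taking the most frequent product of both in a library as 1 read; 55.6% to 57.9% of values above 0 were whole reads (tolerance 0.001). Depth was 907210 to 1555431 reads, and intervals and floors (3 reads) cover counting error only. A limma 3.58.1 fit in R 4.3.3 on log2(FPKM + 1), with a variance trend and 1 mean per pair over all 6 libraries, was made for the 13443 genes averaging 1 FPKM or more. The scale understates changes of low genes. Nothing says that pools came from separate in vitro fertilizations, and p-values then reflect only how these pools vary, which may be technical. Members and lists were chosen with earlier results of these data known. The genes named were all 10 members, up to 4 of the most abundant tested genes per list, any with unadjusted p under 0.05, and the 3 nearest genes of Srf, Tpm3, Vcl and Tagln2; a few of these genes are not reported here. Genes at or near 0, Myh10, Tpm2, Flnc and Igkv13-87 were chosen with their values known. Transcripts similar to the members' (at least 95% over 100 bases) were found with blastn 2.17.0 in GENCODE M21. Alternatives were another pseudocount or filter, median scaling, quantile normalization, limma-voom on recovered reads, a replicate block and left-out libraries.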

Additional observations from a re-analysis of the deposited data

How the results depend on the processing

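No member passed under any of the 14 alternatives (limma, 237 values), and 220 of these values kept their direction. Many of them could not change it. With no filter, with the replicate block, or without a library outside the comparison, the difference is the same as in the main fit. Over all genes 0 passed in each comparison and setting, except that 1 gene, Igkv13-87, was lower in C than in B with a pseudocount of 0.1 (limma, adjusted p = 0.0342; 10 reads in each library of B, 0 in C). At an unadjusted p below 0.05, 518, 405 and 614 genes were found in C against B, C against A and B against A, and 544, 379 and 604 with limma-voom.

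In C against B, Myl9 turned from -0.19 to 0.76 with a pseudocount of 0.1 and 0.16 with limma-voom. Without A2 and C2, Srf turned from -0.11 to 0.24 and Tpm3 from -0.06 to 0.087. In C against A, Tpm4 turned from 0.03 to -0.047 with median scaling and -0.12 with quantile normalization. The cause was not tested. Leaving out 1 library, with a lone library assumed to vary like the others, gave for C against B -0.45 to 0.24 for Srf, -0.014 to 0.64 for Vcl, -0.20 to 0.087 for Tpm3 and -1.39 to 1.02 for Myl9. For C against A it gave -0.59 to 0.65 for Tpm4 and -0.055 to 0.98 for Tagln2, and for B against A -0.39 to 0.27 for Vcl and 0 to 2.41 for Myl9. Tpm4 and Tagln2 stayed above 0 in B against A, at 0.78 to 2.02 and 0.77 to 1.80, and so did Srf (0.25 to 0.70) and Tpm3 (0.20 to 0.42). Srf, Vcl, Tpm3 and Myl9 stayed above 0 in C against A, and Tpm4 and Tagln2 below 0 in C against B.

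The replicate block called 0 genes and 0 members in each comparison. The labels do not say that a number marks a shared batch, and deviations of same-numbered libraries correlated at 0.098 (A and B), 0.203 (A and C) and 0.005 (B and C). Depth limits Tpm1, Tagln, Flna, Myh9 and Myl9 most, with at most 6 reads in any library. It also limits Tpm4 (1 read in A1, 2.5 in C1) and Tagln2 (2 in A1), which fell below 3 reads there. Srf had 4 reads in each of A2 and C2.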
